A study of Mus musculus with 12 samples.

Results

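The contrast between 2 mutant alleles of Rb1 asked, for each gene, whether the change seen in S/S mouse embryonic fibroblasts differed from the change seen in L/L fibroblasts. It used all 12 arrays of the series, in 4 groups of 3. These were Rb1 S/S mutant cells, Rb1 +/+ cells matched to them (together the S set), Rb1 L/L mutant cells, and Rb1 +/+ cells matched to those (the L set). Every group had been grown in 10% serum to passage 4 and then held in 0.1% serum for 72 h to arrest division. An S/S effect is the S/S mean minus the mean of its own wild type, an L/L effect is formed the same way, and the quantity reported here is the S/S effect minus the L/L effect. All values are log2 RMA values, in which 1 unit is a doubling, so a positive difference means that a gene was raised more, or lowered less, in S/S than in L/L. What each allele changes in the protein is not given by the labels. They also leave unsaid whether arrays of 1 group represent independent embryos or cultures. The p-values therefore cover just the scatter among these samples, which may be technical. In the L set it is not technical alone, because arrays within each group differed in sex.

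The retinoblastoma protein, encoded by Rb1, holds E2F transcription factors in check when cells leave the cell cycle. It contacts E2F proteins through its pocket and C-terminal regions and brings corepressors to E2F-bound promoters, and genes for DNA replication are among the best-known targets of this repression. Fibroblasts without serum normally stop dividing and keep these genes low. The title of the series concerns the silencing of endogenous retroelements.

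The cultures had the RNA of fibroblasts. The 12 fibroblast markers, among them the collagen gene Col1a1 and Dcn, which encodes the matrix proteoglycan decorin, averaged 11.17 to 11.70 on the 12 arrays, against array medians of 6.85 to 7.01. Rb1 itself was present in each group, at 8.34, 8.83 and 8.89 in the S-set wild type, 9.72, 9.58 and 9.35 in S/S, 9.23, 9.05 and 8.61 in the L-set wild type and 9.39, 9.36 and 9.23 in L/L. The S/S arrays lay above their wild type and the L/L arrays overlapped theirs. The difference between the effects on Rb1 was 0.50 (SE 0.25, 95% interval -0.03 to 1.04, adjusted p = 0.779) and did not pass. Array 1 of the S-set wild type had the widest residuals, with an SD of 0.325 against 0.0933 to 0.193 for the others. Array 1 of each L-set group was male by its Y-linked genes and the other 10 arrays were female. In both L-set groups array 1 therefore came from another embryo than arrays 2 and 3. In those 10 arrays the Y-linked genes Uty and Kdm5d, which can have no target there, read 4.17 to 5.51. Values in that range are treated below as background. The top of the range was 1 reading, Kdm5d at 5.51 on array 1 of the S-set wild type. The next highest was 5.17, and another Y-linked gene, Eif2s3y, read 3.82 to 4.43. Values from 5.17 to 5.51 are thus called background on the strength of that 1 reading.

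Only 3 of 19938 genes passed for the difference (adjusted p under 0.05 in the limma fit over all genes), which is 0.015% of those tested. The transcript annotated AI506816 had a positive difference (0.00502%), and Serpina3n and Slc43a3 negative ones (0.01%). At an unadjusted p under 0.05 the difference was met by 1296 genes (6.5%), 541 of them positive (2.71%) and 755 negative (3.79%). A difference between 2 effects draws on all 4 groups, and its SE had a median of 0.19, against 0.135 for a single effect. Among 99 genes whose difference exceeded 1 in size, 96 did not pass. Over all genes the difference had a median of -0.06, and the S/S and L/L effects, which share no arrays, had a Pearson correlation of -0.08 and a Spearman correlation of -0.10 across genes, which are not independent replicates. The S/S effects were the more widely spread, with an SD over genes of 0.222 against 0.132 for L/L. Residual SDs of the arrays ran from 0.137 to 0.325 in the S set and from 0.0933 to 0.149 in the L set. The part of this scatter in the wider spread was not tested. In the plot of S/S effects against L/L effects, genes with equal effects would fall on the dashed line.

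**Figure D1:**
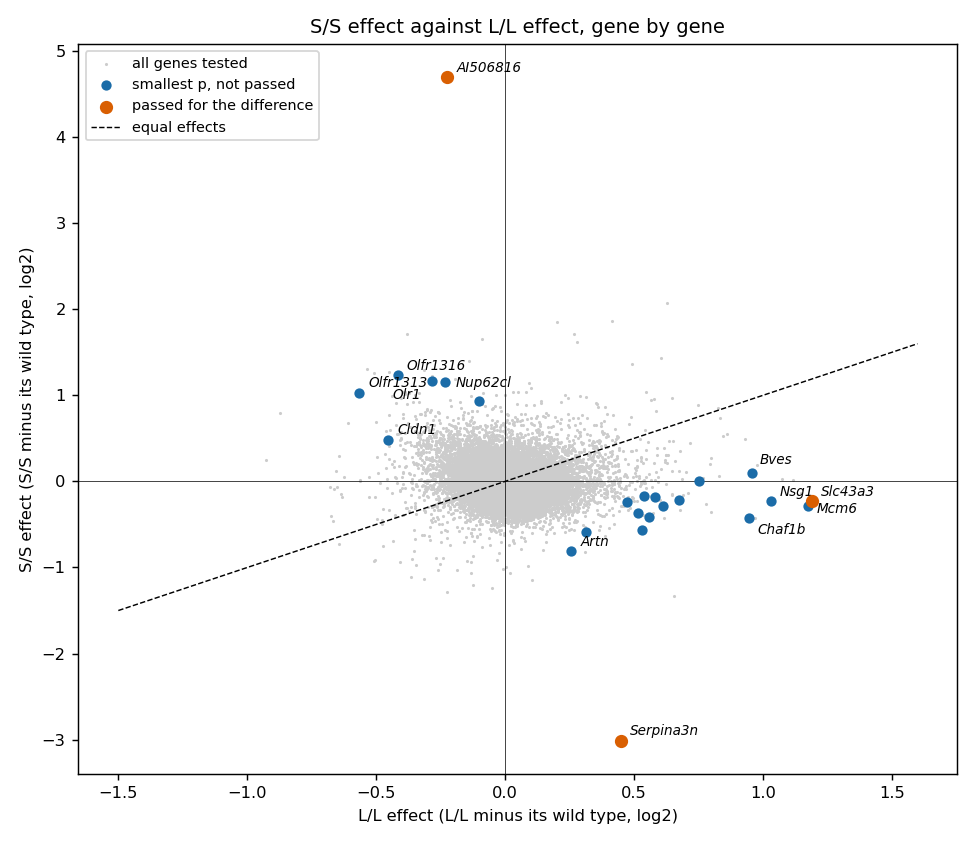
The S/S effect (vertical axis, log2) is plotted against the L/L effect (horizontal axis, log2) for 19938 genes in grey, with the 3 genes that passed for the difference in orange and the 21 next in order of p in blue. AI506816 and Serpina3n lie far above and below the cloud at an L/L effect of -0.22 and 0.45, while Slc43a3 lies to the right, at an L/L effect of 1.19.

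The same difference can be split into what the mutant arrays and what the wild-type arrays contribute. The mutant part is S/S minus L/L, the wild-type part is the L-set wild type minus the S-set wild type, and the parts add up to the difference. Both parts hold whatever differed between the S and L sets in embryos, culture and array handling. In the mutant part this cannot be told apart from the alleles. The wild-type part compares Rb1 +/+ cells with Rb1 +/+ cells, so no mutant allele enters it. Over all genes 1882 (9.44%) passed between the mutants and 1736 (8.71%) between the wild types, which share a genotype. For the genes chosen by their difference the parts are given as descriptions, with no test. The 3 genes that passed showed 3 different arrangements.

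AI506816 was high in S/S alone. Its S/S arrays read 10.32, 10.07 and 10.18, the arrays of the S-set wild type 5.36, 5.29 and 5.82, those of the L-set wild type 4.50, 4.76 and 5.15, and those of L/L 4.56, 4.40 and 4.77. Each S/S array thus lay above all 9 others (an arrangement found in 1.98% of all genes), and the L-set arrays and 2 of the 3 arrays of the S-set wild type lay in the background range. In measured signal the S/S effect was 4.70 and the L/L effect -0.22, a difference of 4.92 (SE 0.25, 95% interval 4.38 to 5.46, adjusted p = 7.04e-07), with a mutant part of 5.61 and a wild-type part of -0.69. Against signals at background the S/S effect and the mutant part are lower bounds on the change in the transcript, and nothing is read from the L/L effect or the wild-type part. The name of the transcript is uncertain. The annotation supplied for the array gives AI506816, a long non-coding RNA gene that RefSeq places on chromosome 5, whereas the 20 annotated probe sets nearest to it in order of identifier all belong to genes of chromosome 1, with Dusp12 just before it and Fcgr4 just after. Across the array, 97.4% of probe sets lying between neighbours of 1 chromosome were annotated to that same chromosome, and Serpina3n and Slc43a3 both matched all 20 of their neighbours.

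Serpina3n, the gene of an acute-phase serpin that cells secrete, differed through the S-set wild type. Its arrays there read 11.41, 11.47 and 11.62. Those of S/S read 8.42, 8.46 and 8.59, those of the L-set wild type 7.45, 8.08 and 8.49 and those of L/L 7.98, 8.36 and 9.02. The S/S arrays fell inside the range of the L/L arrays, and no array outside the S-set wild type exceeded 9.02. In 1.82% of all genes the S-set wild type lay above the 9 other arrays in this way. The difference of -3.46 (SE 0.36, 95% interval -4.23 to -2.69, adjusted p = 0.00161) was the sum of a mutant part of 0.03 and a wild-type part of -3.49. The other measured acute-phase genes did not share this arrangement to the same degree. C3 and the Serpina3 genes Serpina3c, Serpina3f, Serpina3g, Serpina3h, Serpina3i and Serpina3m were listed but had no value, so nothing is said of them. Of 13 measured members of that list, 8 had a negative difference, which is 61.5%, near the 60.2% of all genes. The median was -0.07, and Serpina3n was the 1 that passed. Socs3, a feedback inhibitor of cytokine signalling, came next at -0.46 (adjusted p = 0.764). Serpina3b, the nearest measured neighbour of Serpina3n on its chromosome on one side, had a difference of -0.15 and Gsc, the nearest on the other side, -0.38, and neither passed.

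Slc43a3, which encodes a purine nucleobase transporter of the solute carrier family, was high in L/L. Its L/L arrays read 10.55, 10.51 and 10.58, with an SD of 0.03, while those of their wild type read 9.46, 9.28 and 9.33. In the S set the order was reversed and the gap small, with 9.67, 9.63 and 9.75 in wild type and 9.49, 9.41 and 9.46 in the mutant. All 3 L/L arrays lay above the 9 others. The L/L effect was 1.19 and the S/S effect -0.23, a difference of -1.42 (SE 0.13, 95% interval -1.70 to -1.14, adjusted p = 0.000511). The mutant part was -1.09 and the wild-type part -0.33. The neighbouring genes Slc43a1, a transporter gene of the same family, and Prg2 had differences of -0.41 and -0.14 and did not pass.

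**Figure D2:**
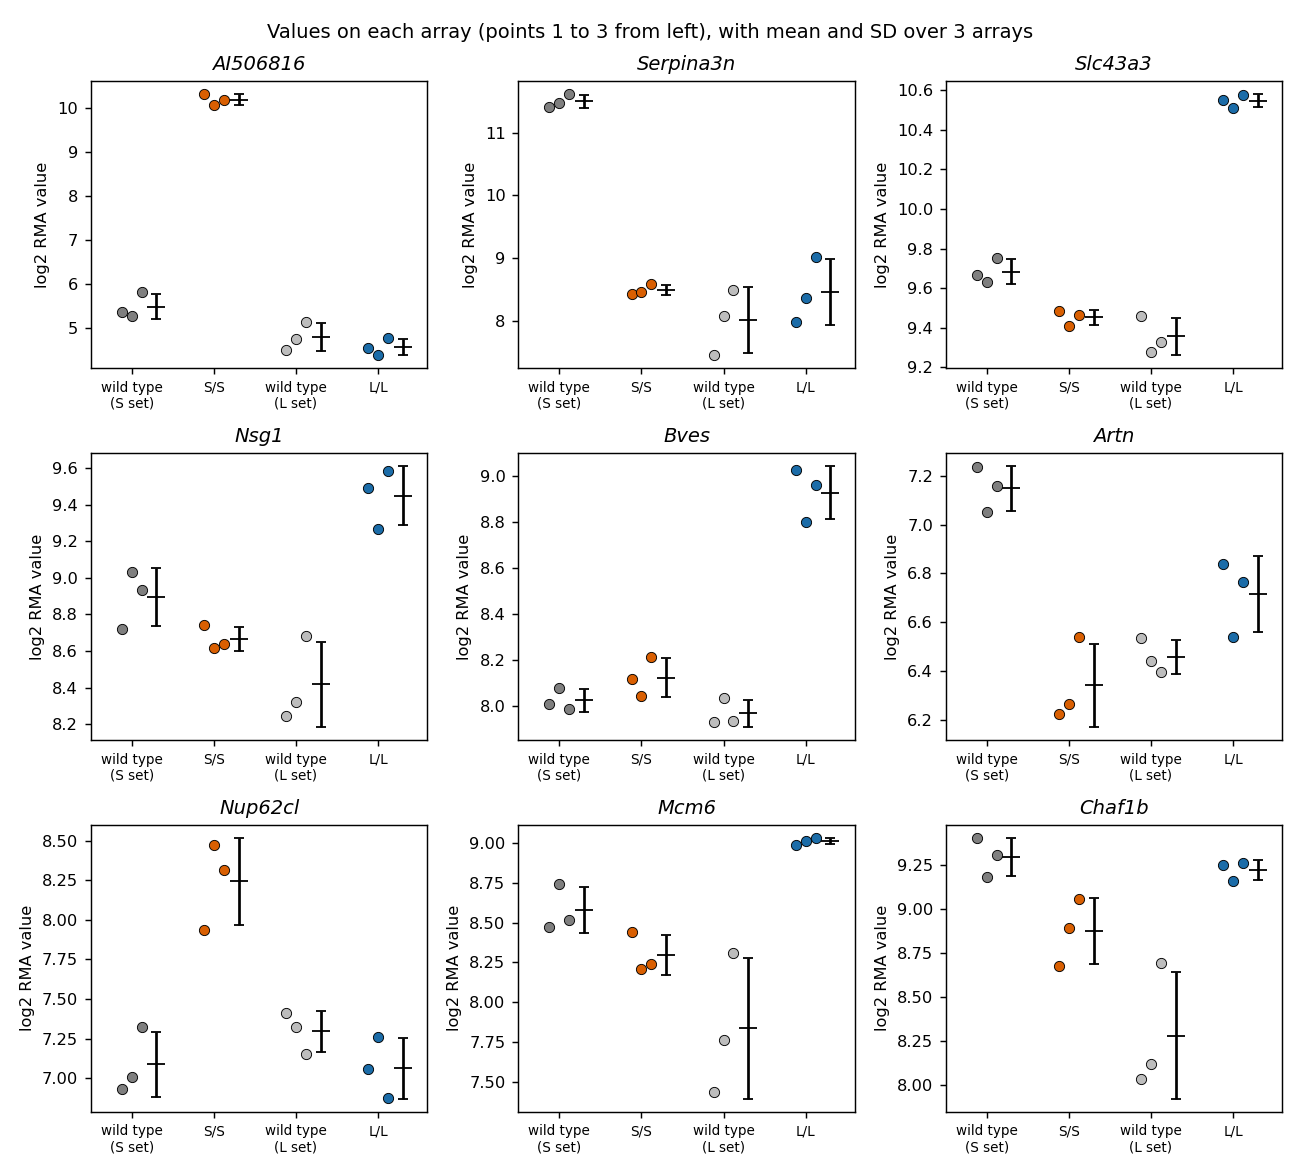
Each panel gives the log2 RMA value of 1 gene on each of 12 arrays, with the mean and SD over 3 arrays beside each group (vertical axes do not start at 0 and differ between panels). AI506816 and Nup62cl are high in S/S, Serpina3n and Artn in the S-set wild type, Slc43a3, Nsg1 and Bves in L/L, and Mcm6 and Chaf1b are lowest in the L-set wild type.

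The 21 genes next in order of p did not pass (adjusted p from 0.0714 to 0.284) and are given as values. With the 3 that passed they make 24 genes, 17 with a negative and 7 with a positive difference. In 22 of the 24 the S/S and L/L effects had opposite signs, the exceptions being Bves and B3galnt1. The group farthest from the mean of the other 3 was L/L for 9 genes (17.2% of all genes), S/S for 6 (28.7%), the S-set wild type for 5 (38.8%) and the L-set wild type for 4 (15.3%). The mutant part was the larger in 15, and the parts had the same sign in 21. These shares follow in part from how the 24 were picked, because a gene scores a large difference when both parts point one way.

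**Figure D3:**
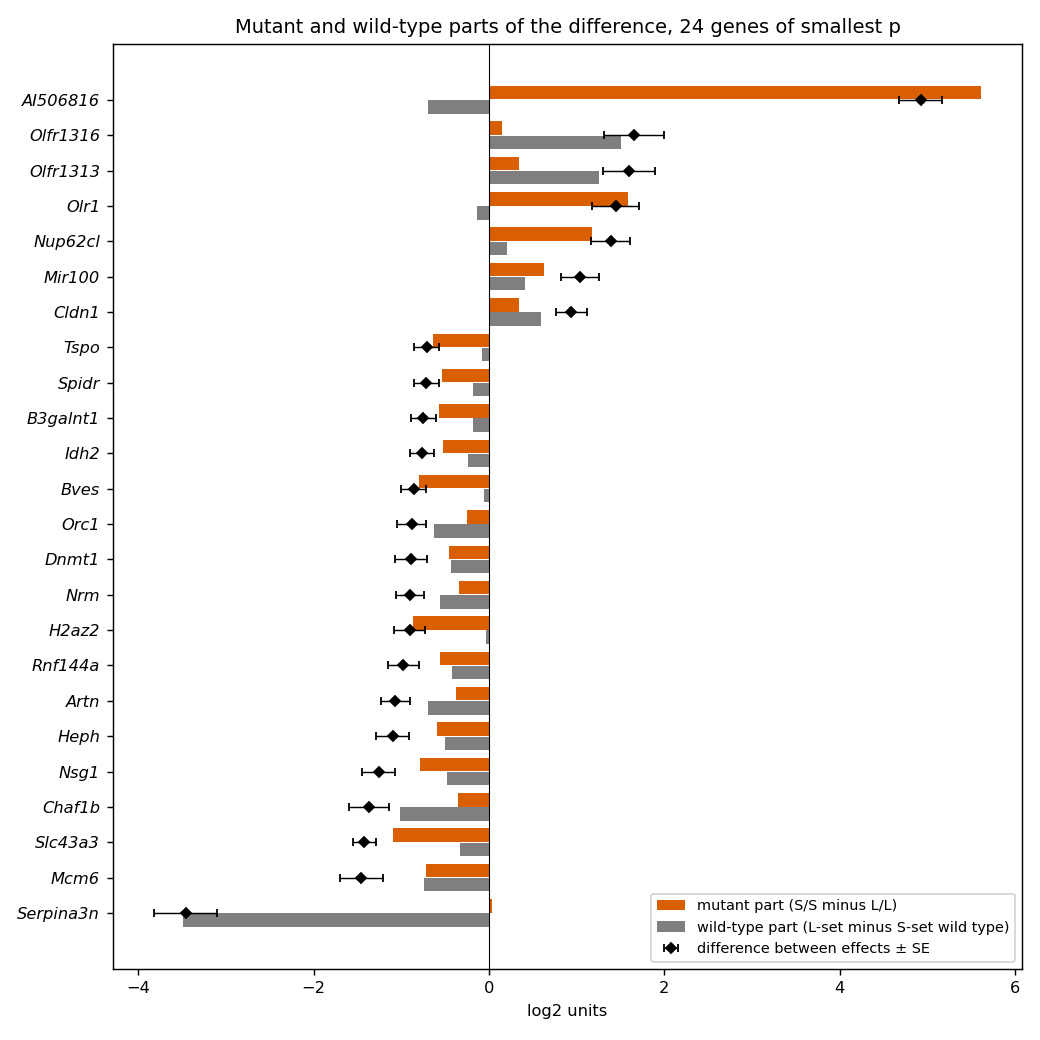
Horizontal bars give the mutant part (orange) and the wild-type part (grey) of the difference for the 24 genes of smallest p, in log2 units, and black diamonds give their sum with its SE. AI506816, Olr1, Nup62cl, Bves and H2az2 rest on the orange bars, Serpina3n, Olfr1316 and Olfr1313 on the grey bars, and Mcm6 and Dnmt1 on both about equally.

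Genes that stood apart through L/L were high there. Nsg1, which encodes a neuronal endosomal trafficking protein, read 9.49, 9.27 and 9.58 in L/L, against 8.25, 8.32 and 8.68 in its wild type, 8.72, 9.03 and 8.93 in the S-set wild type and 8.74, 8.62 and 8.64 in S/S. Its difference was -1.26 (SE 0.19, adjusted p = 0.0714), the smallest p among genes that did not pass. Bves, a Popeye-domain membrane protein gene of muscle and epithelium, read 9.02, 8.80 and 8.96 in L/L and 7.93 to 8.21 on the 9 other arrays. Its S/S effect of 0.10 had the same sign as its L/L effect of 0.96, and its difference was -0.86 (SE 0.14, adjusted p = 0.078). B3galnt1, a glycosyltransferase gene, had an L/L effect of 0.75 and an S/S effect of 0.00. Idh2, which encodes the mitochondrial NADP-dependent isocitrate dehydrogenase, read 11.06, 11.01 and 11.07 in L/L and 10.38 to 10.76 elsewhere. Spidr, a gene for a scaffold of homologous recombination, and Tspo, which encodes a translocator protein of the outer mitochondrial membrane, had differences of -0.71 each. All these genes had 3 L/L arrays above the 9 others, an arrangement found in 2.26% of all genes. Rnf144a, a ubiquitin ligase gene (-0.98, adjusted p = 0.145), was also highest on average in L/L, but its arrays there overlapped those of the S-set wild type.

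Genes that stood apart through S/S were mostly higher there. Nup62cl, related by sequence to the nucleoporin gene Nup62, read 7.94, 8.48 and 8.32 in S/S and 6.87 to 7.41 on the 9 other arrays, and its difference was 1.39 (SE 0.22, adjusted p = 0.078). Olr1, which encodes a receptor for oxidised low-density lipoprotein, read 8.26, 7.89 and 8.05 in S/S and 6.28 to 7.18 elsewhere, with a difference of 1.45 (SE 0.27, adjusted p = 0.159). H2az2, a histone variant gene, was lower in S/S, at 9.52, 9.78 and 9.98 against 10.21 to 10.72 on the other arrays (S/S below the 9 others in 1.55% of genes), with a difference of -0.90 (adjusted p = 0.225). Heph, the gene of a copper-dependent ferroxidase, had effects of -0.57 in S/S and 0.53 in L/L, and here the S/S arrays overlapped those of the L-set wild type. The probe set annotated to the microRNA gene Mir100 read 5.94, 5.95 and 5.59 in S/S and 4.78 to 5.46, in the background range, elsewhere, with a difference of 1.03 (SE 0.22, adjusted p = 0.284). The array measures total RNA from that locus, so the value is not that of a processed strand. The mature strands of Mir100 in RefSeq (GRCm38.p6) are shown with the seed, bases 2 to 8, in capitals.
mmu-miR-100-5p: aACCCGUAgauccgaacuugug
mmu-miR-100-3p: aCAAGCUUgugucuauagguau

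In a further group the S-set wild type was the one farthest from the others, as for Serpina3n. Artn, which encodes the neurotrophic factor artemin, read 7.24, 7.05 and 7.16 there, against 6.22, 6.27 and 6.54 in S/S, 6.54, 6.44 and 6.40 in the L-set wild type and 6.84, 6.54 and 6.76 in L/L. Its difference was -1.07 (SE 0.16, adjusted p = 0.078), with a mutant part of -0.37 and a wild-type part of -0.69. Cldn1, a tight junction gene, was lowest there, at 9.64, 9.74 and 9.86, but only just below L/L at 9.88, 9.93 and 9.87. It was higher in S/S, at 10.41, 10.15 and 10.14, and in the L-set wild type, at 10.17, 10.60 and 10.26. Its effects were 0.48 in S/S and -0.45 in L/L. The olfactory receptor genes Olfr1313 and Olfr1316 had the largest positive differences among the 24 after AI506816, 1.60 and 1.65 (adjusted p = 0.162 and 0.252). Olfr1313 read 5.32, 5.47 and 5.63 in the S-set wild type and 5.93 to 6.99 elsewhere. Olfr1316 read 5.79, 5.65 and 5.99 in the S-set wild type and 6.40 to 7.53 elsewhere, and the S-set wild type lay below the 9 others in 1.18% of all genes. These receptors belong to 1 gene family and lie on the same chromosome with 1 measured gene between them, and a shared signal from similar sequences cannot be told apart from separate transcripts. The wild-type part was the larger in both, 1.26 and 1.50, although 2 of the 3 arrays of the S-set wild type lay in the background range for Olfr1313, which makes its value a lower bound.

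The S/S effect passed for 24 genes (0.12%) and the L/L effect for 8 (0.0401%). Without array 1 of the S-set wild type, the array of widest residuals, these counts were 28 and 26. With all arrays, an unadjusted p under 0.05 was met by 10.1% of genes for the S/S effect and 3.27% for the L/L effect. It was met in both by 159 genes, of which 56 had opposite signs and 103 the same sign. The 5 with the most negative product of the effects were Olfr1313, Chaf1b, Slc7a8, Heph and Slc43a3. Slc7a8, an amino acid transporter gene, read 9.32, 9.23 and 9.37 in S/S against 8.38, 8.58 and 8.90 in its wild type, and 7.65, 7.92 and 8.33 in L/L against 8.15, 8.35 and 8.91. Its S/S arrays lay above their wild type, whereas the L/L arrays overlapped theirs, and the difference of 1.19 (SE 0.29, adjusted p = 0.384) did not pass.

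Genes for DNA replication and nucleotide synthesis had the most negative median difference of the 26 lists examined. Of 42 measured members, 40 had a negative difference, with a median of -0.56, against 12012 of 19938 genes and a median of -0.06 over the array. At an unadjusted p under 0.05, 27 of the 42 were negative and 0 positive (3.79% and 2.71% of all genes), and 0 passed over all genes. All 42 had a positive L/L effect (11137 of all 19938 genes), with a median of 0.42. A negative S/S effect was found in 33 (11484 of all genes), with a median of -0.16. For 27 of the 42 genes all 3 L/L arrays lay above their wild type (9.71% of all genes), and for 11 all 3 S/S arrays lay below theirs (6.29%).

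**Figure D4:**
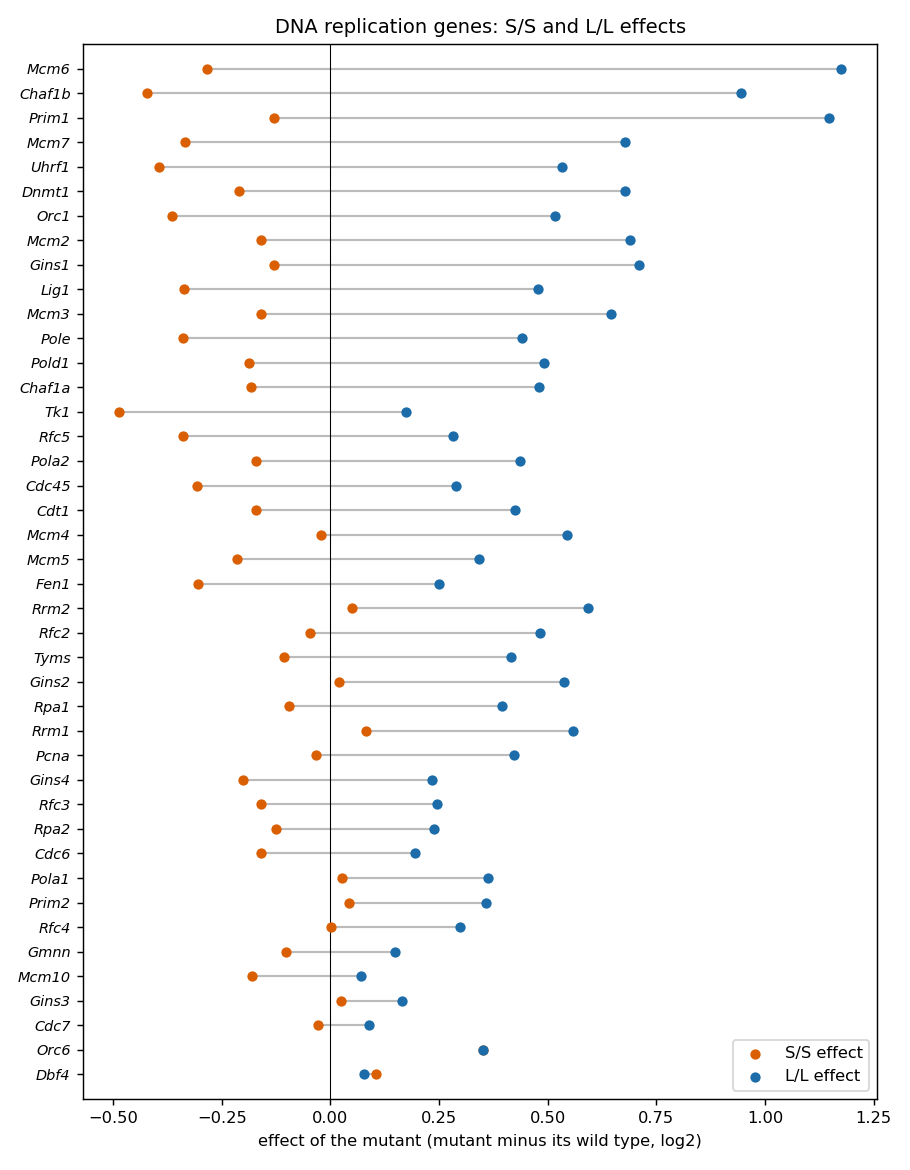
Each row is 1 of the 42 measured replication genes, with its S/S effect (orange) and its L/L effect (blue) in log2 units, ordered by the difference between them. The L/L effect lies to the right of the S/S effect in 40 rows, and Orc6 and Dbf4, at the bottom, are the exceptions.

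Mcm6, a subunit of the replicative helicase, read 8.99, 9.01 and 9.03 in L/L and 7.44, 7.77 and 8.31 in its wild type, against 8.47, 8.74 and 8.52 in the S-set wild type and 8.44, 8.21 and 8.24 in S/S. The SD was 0.02 in L/L and 0.44 in its wild type, the narrowest and the widest of the 4 groups. The difference was -1.46 (SE 0.25, 95% interval -1.99 to -0.93, adjusted p = 0.103), of which -0.72 was the mutant part and -0.74 the wild-type part. Chaf1b, a subunit of the chromatin assembly factor that loads histones behind the fork, read 9.25, 9.16 and 9.26 in L/L and 8.03, 8.12 and 8.69 in its wild type. In the S set it read 9.40, 9.19 and 9.31 in wild type and 8.68, 8.89 and 9.06 in S/S, so L/L reached the level of the S-set wild type and the L-set wild type lay lowest. Its difference was -1.37 (SE 0.22, adjusted p = 0.088), with a mutant part of -0.35 and a wild-type part of -1.02. Nrm, the gene of the nuclear envelope protein nurim, which is not on the list, was likewise lowest on average in the L-set wild type, at 8.05, 8.17 and 8.42, with a difference of -0.90 (adjusted p = 0.109). Orc1, a subunit of the origin recognition complex, read 5.99, 5.92 and 5.97 in the L-set wild type, below the 6.01 to 6.74 of the other arrays (1.48% of genes), and its difference was -0.88 (SE 0.17, adjusted p = 0.169). Dnmt1, the maintenance DNA methyltransferase, read 10.17, 10.05 and 10.12 in L/L, above the 9.21 to 9.91 of the others, and its difference was -0.89 (SE 0.18, adjusted p = 0.255).

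Across the replication list the difference came from both mutants and wild types. The mutant part was negative in 36 of 42 genes, with a median of -0.24, and the wild-type part in 35, with a median of -0.39. Over all genes these medians were -0.02 and -0.07. The L-set wild type was the group farthest from the others in 19 genes (15.3% of all genes) and L/L in 16 (17.2%). It was the S-set wild type in 7 (38.8%) and S/S in 0 (28.7%). As a mean over members, the list read 7.96, 8.10 and 8.40 in the L-set wild type, 8.62, 8.56 and 8.61 in L/L, 8.29, 8.58 and 8.59 in the S-set wild type and 8.24, 8.37 and 8.41 in S/S. The L-set groups did not overlap and the S-set groups did. Array 1 was the lowest in both wild types, and its part in the result was not tested beyond leaving it out, when the list median was -0.62 without array 1 of the S-set wild type and -0.44 without array 1 of the L-set wild type.

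Because E2F factors act at the promoters of such genes, the stretch from 250 bases before to 50 after the RefSeq start site (GRCm38.p6) was searched, on both strands, for the letters TTTCCCGC, TTTCGCGC, TTTGCCGC and TTTGGCGC, forms of the E2F site. The search was added after the values were known. A match was present for 14 of 34 replication genes with a promoter in the table (41.2%) and for 3 of 32 mitosis genes (9.38%). Among all 27025 genes with a promoter there, measured on the array or not, the share was 2.6%. These shares do not depend on the array values, so nothing about the contrast is read from them. Mcm6 and Orc1, which hold matches, are shown beside Chaf1b, which has none in this window although its difference was close to that of Mcm6. Capitals mark the matches, and in Mcm6 the first run is 2 overlapping matches, 1 on each strand.
Mcm6, chr1:128359656-128359955, minus strand: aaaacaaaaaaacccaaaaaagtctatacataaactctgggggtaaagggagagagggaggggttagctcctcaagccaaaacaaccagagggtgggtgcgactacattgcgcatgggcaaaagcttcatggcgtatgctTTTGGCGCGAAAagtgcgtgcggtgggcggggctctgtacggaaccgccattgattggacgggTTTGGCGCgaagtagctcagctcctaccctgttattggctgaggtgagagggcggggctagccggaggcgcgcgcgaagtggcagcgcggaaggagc
Orc1, chr4:108579204-108579503, plus strand: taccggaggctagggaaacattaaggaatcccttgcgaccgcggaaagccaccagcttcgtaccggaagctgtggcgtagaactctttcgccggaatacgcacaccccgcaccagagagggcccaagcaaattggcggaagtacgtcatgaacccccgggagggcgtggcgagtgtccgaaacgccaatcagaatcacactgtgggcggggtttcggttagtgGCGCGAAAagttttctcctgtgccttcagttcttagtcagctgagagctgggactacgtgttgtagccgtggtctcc
Chaf1b, chr16:93883651-93883950, plus strand: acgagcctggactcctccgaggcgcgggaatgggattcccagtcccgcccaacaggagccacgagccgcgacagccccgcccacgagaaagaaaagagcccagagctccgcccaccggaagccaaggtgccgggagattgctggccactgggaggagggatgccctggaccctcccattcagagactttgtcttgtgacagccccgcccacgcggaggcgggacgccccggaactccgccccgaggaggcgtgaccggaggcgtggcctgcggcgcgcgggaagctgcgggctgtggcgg

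Mitosis genes differed in the same direction with another arrangement. Of 40 measured genes, 34 had a negative difference (85%, against 60.2% of all genes), with a median of -0.41. At an unadjusted p under 0.05, 16 were negative (3.79% of all genes) and 0 positive (2.71%), and 0 passed. The median S/S effect was -0.27 and the median L/L effect 0.17. The median mutant part was 0.09 and the median wild-type part -0.40. Members differed in this, and for Cdk1 and Cenpa the mutant part was -0.33 each, with S/S arrays below those of L/L. Melk, a kinase gene of dividing cells, read 8.45, 8.64 and 8.47 in the S-set wild type, 7.89, 7.90 and 8.29 in S/S, 7.08, 7.29 and 7.83 in the L-set wild type and 7.86, 7.74 and 7.86 in L/L. Its difference was -0.91, its mutant part 0.20 and its wild-type part -1.12. The mitotic kinase gene Cdk1 (-0.80), the condensin gene Ncapd2 (-0.61) and the centromeric histone gene Cenpa (-0.74) were the other members of smallest p. None of these 4 passed.

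Among the 29 pocket protein, E2F, MuvB and cyclin genes, 19 had a negative difference, which is 65.5%, near the 60.2% of all genes. The median was -0.22 and 0 passed. The 4 of smallest p pointed both ways. Rbl2, which encodes the pocket protein p130 of resting cells, had a difference of 0.76, from effects of 0.55 in S/S and -0.22 in L/L (adjusted p = 0.475). Ccne1, encoding the G1/S cyclin E1, had a difference of -0.55, all of it from an L/L effect of 0.57 beside an S/S effect of 0.01 (adjusted p = 0.51). Tfdp1, the gene of an E2F partner (-0.41), was lowest in the L-set wild type, and Cdk6, a G1 kinase gene (0.74), was lowest on average in the S-set wild type.

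Macrophage markers were the list with the most positive median. All 19 measured markers had a positive difference (39.8% of all genes), with a median of 0.98. An unadjusted p under 0.05 was reached by 2, Itgam (1.13) and Cx3cr1 (0.66), against 2.71% of all genes, while 0 passed. As a mean over markers the list read 8.59, 8.60 and 8.65 in S/S and 7.88, 7.97 and 8.09 in its wild type, with no overlap. In the L set the arrays were scattered, at 7.43, 8.21 and 9.36 for the wild type against 7.08, 8.58 and 8.44 for L/L, and the groups overlapped. The median difference was 0.41 without array 3 of the L-set wild type, 0.47 without array 1 of L/L, with 17 of 19 positive in either case, and 1.43 without array 1 of the L-set wild type. In RNA from whole cultures, more macrophages and more RNA per macrophage cannot be told apart.

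Interferon-stimulated genes, which macrophages also express, showed no common direction in the contrast. Of 43 measured genes 23 had a positive difference (53.5%, against 39.8% of all genes), with a median of 0.06. Both effects had a positive median, 0.19 in S/S and 0.14 in L/L. At an unadjusted p under 0.05, 5 were positive (2.71% of all genes) and 2 negative (3.79%), and 0 passed. Trim30d and Trim30a, tripartite-motif genes, had differences of 1.44 each. That of Trim30a was the less certain (SE 0.58, adjusted p = 0.748), and its S/S arrays did not all lie above the others. Whether similar sequences give these genes a shared signal was not tested. Trim30d read 6.83, 6.33 and 5.92 in S/S and 4.34 to 5.41 elsewhere, in the background range (SE 0.35, adjusted p = 0.384). The antiviral GTPase gene Mx2 (0.95) and Ifi205 (0.74) were lowest on average in the S-set wild type, with wild-type parts of 0.65 and 0.44. For Mx2 the 3 arrays of that group read 4.97, 5.04 and 5.32, in the background range, so its values there are bounds. Mlkl, the executor gene of necroptosis, lay the other way at -0.78 (adjusted p = 0.619), from effects of 0.98 in L/L and 0.19 in S/S. The part of the macrophage markers in these values was not tested.

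The lists nearest to the title of the series gave small median differences. These lists hold annotated single genes, so they do not measure retroelement transcripts at large. Of 13 measured genes derived from retroelements, 10 had a negative difference (76.9%, against 60.2% of all genes) and the median was -0.14. Peg10, an imprinted gene derived from a retrotransposon, was the 1 with an unadjusted p under 0.05 (6.5% of all genes). It read 10.79, 10.51 and 10.34 in S/S, 10.25, 10.04 and 9.91 in its wild type, 9.99, 10.30 and 10.30 in the L-set wild type and 9.81, 9.75 and 9.81 in L/L, a difference of 0.89 that did not pass. The S/S arrays lay above the 9 others and the L/L arrays below them (1.98% and 1.18% of genes). Among 32 genes of repeat silencing through chromatin, 19 were positive (59.4%, against 39.8% of all genes) and the median was 0.07. Dnmt1 (-0.89), Uhrf1, its partner at newly copied DNA (-0.93), and Ezh2, the Polycomb methyltransferase gene (-0.48), were the 3 negative members of smallest p, and the first of them also belongs to the replication list, as does Uhrf1.

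**Figure D5:**
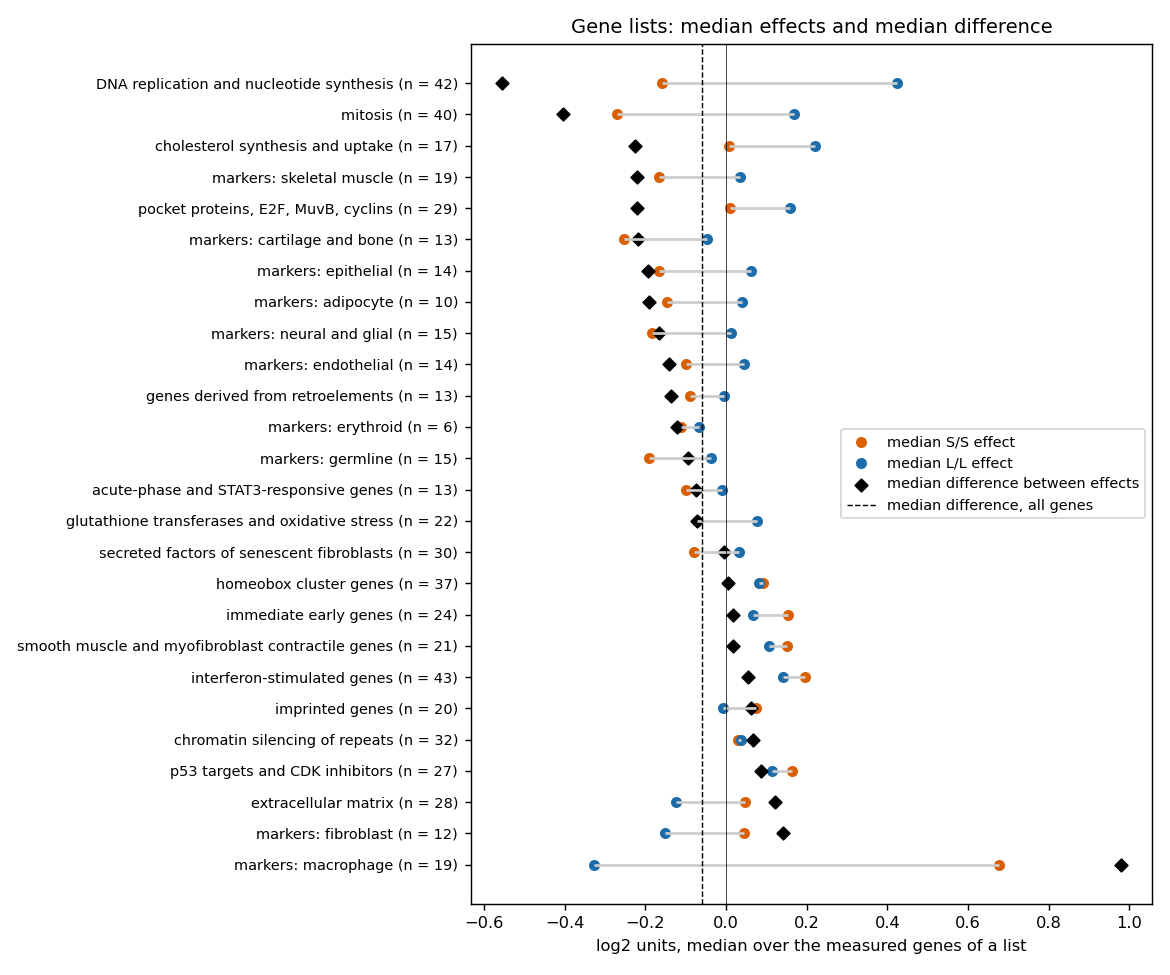
For each of 26 gene lists the plot gives the median S/S effect (orange), the median L/L effect (blue) and the median difference between effects (black diamond) over the measured members, in log2 units, with the median difference of all genes, -0.06, as a dashed line. DNA replication (-0.56) and mitosis (-0.41) lie farthest to the left and macrophage markers (0.98) farthest to the right.

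The other lists had medians between -0.23 and 0.14. The 17 cholesterol genes were all negative (60.2% of all genes), with a median of -0.23. Their median L/L effect was 0.22 and their median S/S effect 0.01. Cyp51, a sterol demethylase gene, had the smallest p, with a difference of -0.55. Among the secreted factors the chemokine genes Ccl2 (0.83) and Ccl7 (0.78) were positive and Artn negative, with a median of -0.01 over 30 genes. The part of the macrophage markers in the chemokine values was not tested either. Gstm6, a mu-class glutathione transferase gene, led the glutathione list (22 genes, median -0.07) at 1.65 (SE 0.36, adjusted p = 0.286). It read 7.87, 7.97 and 8.58 in S/S, 6.40, 6.24 and 6.22 in its wild type and 4.92 to 5.97 in the L set. Of the 6 L-set arrays 5 lay in the background range, so its mutant part of 2.80 and wild-type part of -1.15 are differences in signal that understate those in the transcript. The p53 targets and CDK inhibitors had a median of 0.09, which was -0.04 without array 1 of the S-set wild type. At an unadjusted p under 0.05, 3 of 27 members were positive (2.71% of all genes) and 3 negative (3.79%). Mdm2, the gene of the ligase that degrades p53, was at 0.61 and the pro-apoptotic gene Pmaip1, lowest in the S-set wild type, at 0.71. The CDK inhibitor genes Cdkn2c and Cdkn2a were at -0.71 and -0.42, and none of these 4 passed. Homeobox genes (0.01), imprinted genes (0.06), contractile genes (0.02) and immediate early genes (0.02) had small positive medians, against -0.06 for all genes. Of 28 matrix genes 20 had a positive difference (71.4%, against 39.8% of all genes), with a median of 0.12. A negative L/L effect was found in 25, against 8801 of all 19938 genes. No member of these 5 lists passed. The markers of skeletal muscle (-0.22), cartilage and bone (-0.22), epithelium (-0.19), adipocytes (-0.19), neural cells (-0.17), endothelium (-0.14), erythroid cells (-0.12) and germ cells (-0.09) had negative medians, and those of fibroblasts a positive one (0.14). Array 1 of the S-set wild type was the highest array of its group in several of these lists, at 6.79 against 6.33 and 6.27 for epithelial markers and 5.46 against 5.03 and 5.05 for germ cell markers. Without it the median was 0.07 for erythroid, 0.01 for neural and -0.0036 for fibroblast markers, and with array weights it was 0.02 for epithelial and 0.06 for germ cell markers.

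The count of 3 depended on single arrays of unequal quality. It was 21 without array 1 of the S-set wild type, 5 without array 3 of S/S, 7 without array 3 of the L-set wild type, and 8 without both arrays numbered 1 of the S set. AI506816, Serpina3n and Slc43a3 passed in each of these fits. Of the 21 (0.105% of all genes), 2 belonged to the replication list, both negative. With weights that limma estimates for each array, 293 genes passed (1.47% of all genes, 84 positive and 209 negative). The weights set array 1 of the S-set wild type to 0.0774 and array 2 of that group to 5.88. Among the 293 were 23 of the 42 replication genes, each negative. All 24 genes above were also among them, but those had been picked by smallest p in these same data.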

How the data were processed

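Each of 12 fibroblast RNA samples was measured on its own Affymetrix Mouse Gene 1.0 ST array. The deposited values are log2 RMA values (background-corrected, normalized between arrays, summarised per probe set), made by the authors with Partek per the design text of the series. The version and the genome build are not given in the sources used here, and the range of the values, 2.43 to 14.67, shows the log2 scale. Samples were grouped by title.

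Of 35556 probe sets, 21789 had 1 gene symbol, 1621 several and 12146 none. For 999 genes with more than 1 such probe set the one of highest mean was used, which left 19938 genes with no filter on dim values. One linear model with 4 group means was fitted with limma 3.58.1 in R 4.3.3 (8 residual and 5.19 prior degrees of freedom). Tests were two-sided, with Benjamini-Hochberg adjustment over all genes, and errors are SDs over 3 arrays or SEs of the model. The fit was tested on simulated data with, for each gene, independent errors of the same spread on every array. Arrays of unequal quality were not simulated.

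The contrast, the 27 gene lists (579 of 631 members measured) and the rule for named genes were chosen with earlier results of these data known. The rule named Rb1, the genes that passed, those of next smallest p up to 24, per list the 4 members with the lowest p and the 5 genes with the most opposite effects. Others, such as Trim30a, the neighbours of the genes that passed and the exceptions in a count, were chosen after their values were seen. One of the lists, sex chromosome genes, was read as values only. Alternatives changed the normalization, probe set choice, filter, prior, weights, block, sex and arrays.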

Additional observations from a re-analysis of the deposited data

Results flagged for a closer look

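The S/S and L/L effects differed by the test of the difference itself for 3 genes: AI506816 (4.92), Serpina3n (-3.46) and Slc43a3 (-1.42), with the values given above.

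Among the 12146 probe sets without a gene symbol, which the comparisons above do not use, 7 passed for the difference when every probe set was tested. They carried only 3 distinct profiles of values. A group of 4 probe sets had the same value on each of the 12 arrays, at 8.29, 8.79 and 8.73 in S/S, 5.71, 5.35 and 5.87 in its wild type, 5.37, 5.01 and 6.15 in the L-set wild type and 5.42, 5.51 and 5.18 in L/L, a difference of 3.11 (SE 0.36, adjusted p = 0.00865 by limma), against signals partly in the background range. A pair with identical values read 8.85, 8.82 and 8.99 in S/S and 6.85 to 7.46 elsewhere, a difference of 1.57 (SE 0.16, adjusted p = 0.00399). The last had a mean of 8.75 in the S-set wild type, with 8.43 as its lowest array there, and read 5.69 to 6.70 elsewhere, a difference of -2.85 (SE 0.27, adjusted p = 0.00305), the arrangement seen for Serpina3n. In all 3 profiles the L/L effect was between -0.14 and 0.10. Over the whole array, 701 probe sets shared all 12 values with at least 1 other, 313 of them without a symbol. What these probe sets measure is not given by the annotation used here.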

How the results depend on the processing

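AI506816, Serpina3n and Slc43a3 passed under all 23 settings run on 1 value per gene. The number passing for the difference was 8 after quantile normalization, 293 with array weights, 8 without both arrays numbered 1 of the S set and 10 with every probe set tested, and 3 to 21 when single arrays were left out. Both fits with the replicate number as a block, shared by the 4 groups or within each set, gave 3. Same-numbered arrays of wild type and mutant deviated together in some pairs only (correlations of 0.39, 0.47 and -0.12 in the S set and 0.60, 0.06 and 0.36 in the L set), so the numbers were not taken to pair samples. Differently numbered arrays had correlations of -0.60 to 0.59 in the S set and -0.52 to 0.21 in the L set. Array 1 was male in both L-set groups, and whether numbers there mark a shared litter or handling was not tested.

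For the S/S effect 24 genes passed, and 12 with array medians subtracted, 415 with array weights, 15 with the shared replicate block, 37 with the replicate block within sets, 3 and 37 without the arrays numbered 1 of the S set and of the L set, 42 with sex as a covariate and 2 to 38 without single arrays. For the L/L effect 8 passed, and 336 with array weights, 5 with the block within sets, 42 and 2 without those pairs of arrays, 2 with every probe set tested and 2 to 26 without single arrays. Between the mutants 1882 passed, and 3739 with array weights, 3751 and 551 without those pairs and 733 to 3790 without single arrays. Between the wild types 1736 passed, and 2686 after quantile normalization, 6520 with array weights, 2870 and 304 without those pairs, 912 with sex as a covariate and 525 to 2078 without single arrays.

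The 24 genes of smallest p kept their direction in all 575 values, and in 45 of these a gene came to pass. Over all 120 named genes 3 of 2865 values changed sign, all of the globin gene Hba-x: 0.018 with array weights, 0.132 without array 1 of the S-set wild type (range without single arrays -0.338 to 0.132) and 0.046 without both arrays numbered 1 of the S set. The cause was not tested. List medians moved by more than the spread among replicates in 33 values and by less in 565. The replication median stayed negative (-0.68 to -0.44), as did the mitosis median (-0.57 to -0.31), and the macrophage median stayed positive (0.41 to 1.43). The interferon median ran from -0.08 to 0.21. The signal of genes near background limits their differences.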
